A study of Mus musculus with 14 samples.

Results

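Cdkn1a, Plk2, Plk3 and Btg2 are stress-responsive genes that p53 can switch on and that are grouped here under the name of cell cycle brakes. For the kinases Plk2 and Plk3 that name is only a label. They were followed here as a named set of 4 genes, found by symbol, of the 1573 genes held in 2 expression tables of mouse hematopoietic stem cells (HSCs). The table on age held 3 of them among 1043 genes (Btg2 was not in it), and the table on Clu knockout (KO) held all 4 among 583 genes. As deposited, old HSCs (oHSCs) carried more Cdkn1a and Plk2 mRNA than young HSCs (yHSCs) after transplantation, with Plk3 at the edge of the test. Only Plk2 was kept when libraries were rescaled. Also as deposited, oHSCs that received guides against Clu carried less of all 4 than oHSCs with a control guide, where 50.1% of the KO table was lower. Of these 4, 2 stayed past the limits under median-of-ratios, 1 under TMM and 3 under column-total rescaling. Of all 583 genes of the KO table, 59, 56 and 70 were lower under these rescalings.

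Every library was made from donor cells that had spent 4 months in a lethally irradiated CD45.1 recipient that was 2 months old at transplantation, and had then been sorted from its bone marrow. For the question of age, HSCs came from wild-type C57BL/6J donors older than 18 months (o_Tx, 4 libraries) or 2 months old (y_Tx, 3 libraries). For the question of Clu, the chaperone clusterin, HSCs came from 24-month-old mice with a Cas9 knock-in at Rosa26, and were infected before transplantation with an mCherry lentivirus carrying 3 Clu guides packaged together (o_sgClu, 4 libraries) or a control guide (o_sgCtrl, 3 libraries). Both arms of that experiment thus carried Cas9 and a lentivirus, and the KO arm is a pool of cells that could be edited at up to 3 sites. The labels call the cells hematopoietic stem and progenitor cells and do not say whether replicates came from separate animals, so p-values measure only the spread between these samples.

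p53 is a transcription factor that is stabilized by DNA damage and other stress. Its best known target, Cdkn1a, encodes p21, which binds and inhibits the cyclin-dependent kinases (CDKs) that drive cells into S phase, and p21 is known for its part in keeping HSCs quiescent. Btg2 belongs to the BTG/TOB family of antiproliferative proteins, which recruit the deadenylase complex that shortens mRNA tails. Plk2 and Plk3 are Polo-like kinases that, unlike the mitotic kinase Plk1, are induced as stress and immediate early genes and act outside mitosis. Several of these genes are also raised by growth factors and by handling of cells without any action of p53.

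The guides are shown because they define the KO arm. Positions are on GRCm38 chromosome 14, where Clu lies on the + strand, and the bases are printed 5′ to 3′ in lower case. All 3 fall in coding exons of a transcript of 9 exons.
Clu guide 1: gagattcagaacgccgtcca
Clu guide 2: agtgtgtaacgagaccatga
Clu guide 3: aacatgttgtggaagctcgg
Guide 1 matched exon 3 (chr14:65973360-65973379) and guide 2 exon 4 (chr14:65974896-65974915), both on the strand of the gene. Guide 3 matched exon 5 on the opposite strand (chr14:65975875-65975894). Clu itself was not among the 583 genes of the KO table, so the labels could not be checked against the targeted gene.

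In GRCm38, Cdkn1a (159 encoded residues) lies at chr17:29090976-29100727 on the + strand and Plk2 (682 residues) at chr13:110395046-110400844 on the + strand. Plk3 (648 residues) lies at chr4:117128655-117133963 and Btg2 (158 residues) at chr1:134075170-134079120, both on the - strand. The mature transcripts of the 4 genes share 0.0% of their 50-base words with other genes. Exons of Cdkn1a overlap AC167363.2, and those of Plk3 overlap Tctex1d4, on the opposite strand, and the kit used does not keep strand, so reads from those overlaps cannot be told apart.

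The promoters are shown because the 4 genes have different known inputs. They come from RefSeq windows of 1 fixed length around annotated start sites on GRCm38.p6, of which 5 belong to the 4 genes (2 of them to Cdkn1a), and the stretches shown end before the start site. Capitals mark a motif that was found in them, and the motifs were chosen after the sequences were seen.
Cdkn1a: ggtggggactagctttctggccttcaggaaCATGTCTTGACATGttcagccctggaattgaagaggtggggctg
Plk2: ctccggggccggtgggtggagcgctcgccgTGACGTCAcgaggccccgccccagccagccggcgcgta
Btg2: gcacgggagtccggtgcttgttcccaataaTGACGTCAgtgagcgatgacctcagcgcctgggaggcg
The Cdkn1a stretch (chr17:29090901-29090974, + strand) holds CATGNNNNNNCATG, the spaced core of a p53-type response element. This match lies from base -48 to -35 before the start site of the upstream one of the 2 Cdkn1a windows. The letters TGACGTCA, the full cAMP response element bound by CREB and ATF factors, stand at -62 to -55 of Plk2 (chr13:110394952-110395019, + strand) and at -166 to -159 of Btg2 (chr1:134079284-134079351, - strand). Searched on both strands, CATGNNNNNNCATG was in 0.713% and TGACGTCA in 1.79% of 32841 windows. The AP-1 motif TGANTCA, present in 7.81% of windows, was in none of the 5 windows of these genes. Its ends are those of TGACGTCA but their spacing differs, so no match of one is also a match of the other, while CATGNNNNNNCATG may overlap either. The Plk3 window and the second Cdkn1a window held none of the 3 motifs.

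The tables bear on every value that follows. They hold only genes that the authors had already called between these same libraries, so most genes of a table move in its direction and p-values within it describe a preselected list. The values were taken as FPKM, fragment counts corrected for transcript length and library size, so that levels of different genes can be set side by side. Summed over the age table they ran from 71628 to 84123 in o_Tx and from 42199 to 54607 in y_Tx, and over the KO table from 10841 to 12502 in o_sgClu and from 17005 to 18573 in o_sgCtrl. These sums are not sequencing depths, which are unknown. A gene was counted as changed at an unadjusted limma p under 0.05 and an absolute log2 fold change over 0.5, on log2(FPKM + 1). By these limits 652 genes of the age table were higher and 10 (0.959%) lower in o_Tx, with a median log2 fold change of 0.70, and 292 of the KO table were lower and 90 higher in o_sgClu, with a median of -0.52. Rescaling libraries over the genes of the table takes most of that median out, and left 114 higher and 62 lower genes for age and 130 higher and 56 lower genes for Clu KO under trimmed means (TMM). Of 20 HSC genes, the age table held 5, with Procr, Slamf1, Pdzk1ip1 and Esam higher in o_Tx, and the KO table held 2, of which Procr was lower in o_sgClu (log2 fold change -0.76) and Fgd5 (-0.63) did not pass, with overlapping groups for both.

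Cdkn1a had the highest mean level of the brake genes held in each table, in every group. It stood at 114.6, 184.2, 112.2 and 161.7 FPKM in the 4 o_Tx libraries and 93.2, 84.8 and 64.5 FPKM in the 3 y_Tx libraries. Every old library stood above every young library, the closest pair being 112.2 and 93.2 FPKM. The mean of the old group was 143.2 ± 35.6 FPKM (SD, n = 4), 1.77-fold that of the young group at 80.9 ± 14.8 FPKM (SD, n = 3). Cdkn1a rose by a log2 fold change of 0.80 (SE 0.26, 95% interval 0.23 to 1.37, adjusted p = 0.0377 by limma over the table). That rise was about the median of its table, 0.10 above it and at rank 389 of 1043, and the log2 fold change turned to -0.02 under median-of-ratios scaling and to -0.07 under TMM.

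Plk2, a kinase found at centrosomes and in the stress response, showed the clearest difference with age. Its levels were 11.0, 27.6, 16.9 and 18.3 FPKM in o_Tx and 4.05, 4.67 and 2.76 FPKM in y_Tx. The lowest old library, at 11.0 FPKM, was above the highest young library, at 4.67 FPKM, so the groups did not overlap. Means were 18.5 ± 6.88 FPKM (SD, n = 4) and 3.83 ± 0.974 FPKM (SD, n = 3), a 4.83-fold difference of means. The log2 fold change was 1.96 (SE 0.30, 95% interval 1.29 to 2.64), with an adjusted limma p of 0.00223, and placed Plk2 at rank 20 of 1043. It stayed at 1.26, 1.21 and 1.39 under median-of-ratios, TMM and column-total scaling and passed the limits under all 17 alternatives tried, with adjusted limma p between 0.00136 and 0.0278.

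Plk3, a relative of Plk2 that is active after DNA damage and other stress, gave 5.80, 11.9, 7.21 and 11.8 FPKM in o_Tx and 6.18, 5.16 and 4.81 FPKM in y_Tx. The groups overlapped: the first old library lay below the first young one, and the other 3 old libraries lay above all young libraries. Means were 9.18 ± 3.15 FPKM (SD, n = 4) and 5.38 ± 0.711 FPKM (SD, n = 3). The log2 fold change of 0.62 (SE 0.28, 95% interval 0.01 to 1.24) met the limits at an unadjusted limma p of 0.0458 and missed them at the adjusted p of 0.0753. Blocked on replicate number, with same-numbered libraries of this experiment read as pairs, it was 0.49 with an adjusted limma p of 0.128. As o_Tx replicate 4 has no partner, it does not enter that estimate. The log2 fold change also missed the limits without o_Tx replicate 2 (0.49) or 4 (0.49), or without y_Tx replicate 1 (0.71), 2 (0.60) or 3 (0.56). It turned to -0.09 and -0.14 under median-of-ratios and TMM scaling.

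**Figure D1:**
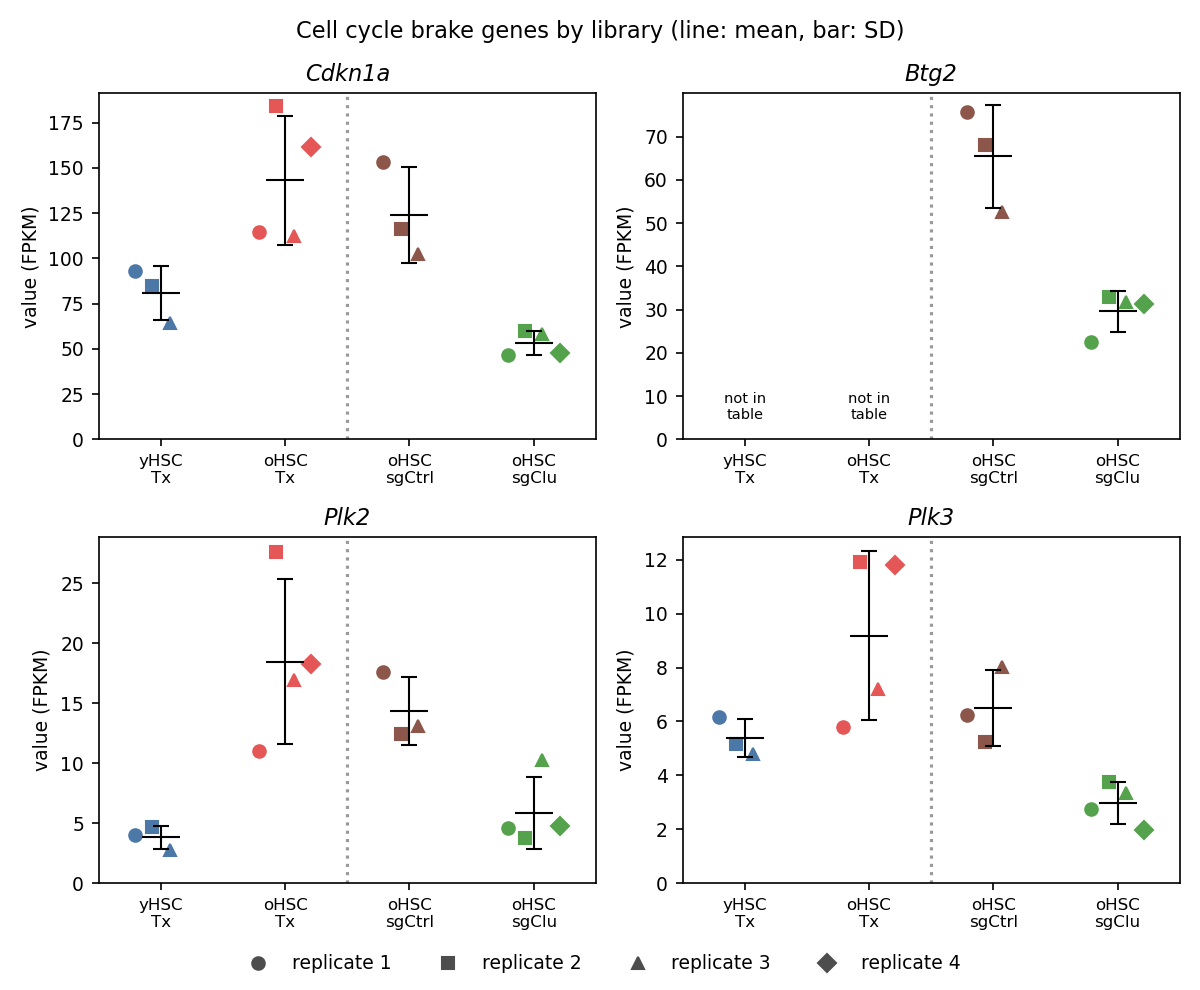
Level of each gene in FPKM (vertical axis, linear, from 0) in the libraries of the 4 groups, with replicates by symbol, the mean as a line and the SD as a bar; the dotted line parts the 2 experiments, which are separate tables. Plk2 lies between 11.0 and 27.6 FPKM in o_Tx and between 2.76 and 4.67 FPKM in y_Tx, and each of the 4 genes is lower in every o_sgClu library than in any o_sgCtrl library.

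So 3 of the 3 genes held passed the limits with age, where 62.5% of the table did. At an adjusted p under 0.05 it was 2 of the 3, where 37.3% of the table passed, and 2 of the 3 had groups that did not overlap, where 49.7% of the table did. For each of these 2 an exact two-sided permutation test that lists all 35 ways to group the 7 libraries gave p = 0.0571, the smallest value that 4 against 3 libraries allow, and for Plk3 it gave an exact p of 0.114. Past an absolute log2 fold change of 1, where 18.9% of the table was higher, Plk2 alone of the 3 remained. Library o_Tx replicate 2 was the highest of its group for all 3 genes, by 0.39 (Cdkn1a), 0.62 (Plk2) and 0.39 (Plk3) on the log2 scale over the group mean, and o_Tx replicate 1 was the lowest for Plk2 and Plk3. Among yHSCs, y_Tx replicate 3 was lowest for all 3 genes, and it also had the lowest sum over the table.

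Ratios of genes within a library are free of any scaling of that library. The log2 ratio of Cdkn1a to Plk2 was 4.42 ± 0.20 (SD, n = 3) in yHSCs and 3.0 ± 0.32 (SD, n = 4) in oHSCs. The ranges were apart, 4.18 to 4.55 against 2.73 to 3.38. Plk2 to Plk3 was -0.52 ± 0.34 in yHSCs and 1.0 ± 0.29 in oHSCs, also with no overlap, so that Plk3 was the higher of the 2 kinases in every young library and Plk2 in every old one. Cdkn1a to Plk3 was 3.90 ± 0.15 in yHSCs and 4.0 ± 0.22 in oHSCs. Over the 9 ratios compared in both experiments, the exact permutation p was 0.0571 for the first 2 (adjusted 0.257) and 0.629 for Cdkn1a to Plk3 (adjusted 0.90), so that none passed at this number of libraries.

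**Figure D2:**
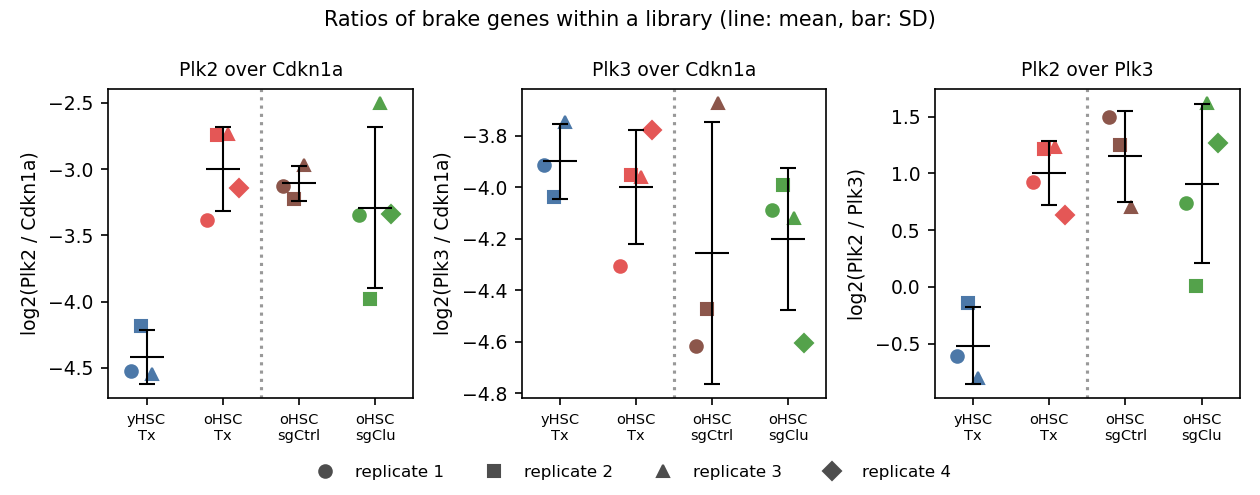
Log2 ratio of pairs of genes within each library (vertical axis; axes differ between panels and do not start at 0), with replicates by symbol, the mean as a line and the SD as a bar. Plk2 over Cdkn1a and Plk2 over Plk3 are higher in all 4 o_Tx than in all 3 y_Tx libraries, while the o_sgClu and o_sgCtrl libraries overlap in all 3 panels.

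Guides against Clu were set against a control guide in oHSCs of the second experiment. Cdkn1a stood at 46.9, 59.9, 58.3 and 48.0 FPKM in the o_sgClu libraries and at 153.5, 116.1 and 102.4 FPKM in the o_sgCtrl libraries. No KO library came near a control library. Means were 53.3 ± 6.79 FPKM (SD, n = 4) and 124.0 ± 26.4 FPKM (SD, n = 3), 2.33-fold lower after Clu KO. The log2 fold change was -1.19 (SE 0.18, 95% interval -1.60 to -0.79, adjusted p = 0.00302 by limma), rank 36 of 583 from the lowest and -0.67 from the median of the table. Cdkn1a was the one gene of the 4 that fell past the limits under all 3 rescalings, at -0.57 under median of ratios and -0.55 under TMM, and in 17 of 17 alternatives.

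Btg2, which the age table did not hold, gave 22.6, 32.9, 31.7 and 31.4 FPKM in o_sgClu and 75.7, 68.1 and 52.5 FPKM in o_sgCtrl. The groups were separate, and 3 of the 4 KO libraries lay close together with the first one below them. Means were 29.6 ± 4.77 FPKM (SD, n = 4) and 65.5 ± 11.8 FPKM (SD, n = 3). The 2.21-fold difference was a log2 fold change of -1.12 (SE 0.19, 95% interval -1.54 to -0.69, adjusted p = 0.00404 by limma), which fell short of the limits under median of ratios (-0.50) and TMM (-0.48).

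Plk2 gave 4.61, 3.80, 10.3 and 4.74 FPKM in o_sgClu and 17.6, 12.4 and 13.1 FPKM in o_sgCtrl. The third KO library stood well above the other 3 and still under every control library. The means of 5.86 ± 2.97 FPKM (SD, n = 4) and 14.4 ± 2.82 FPKM (SD, n = 3) differed 2.46-fold, with a log2 fold change of -1.24 (SE 0.29, 95% interval -1.91 to -0.56, adjusted p = 0.0109 by limma). Without o_sgClu replicate 3 it was -1.5, and under TMM it was -0.66 and no longer past the limits.

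Plk3, the least abundant of the 4, stood at 2.76, 3.77, 3.35 and 1.97 FPKM in o_sgClu and at 6.25, 5.22 and 8.03 FPKM in o_sgCtrl. Its groups were separate too. The means were 2.96 ± 0.784 FPKM (SD, n = 4) and 6.50 ± 1.42 FPKM (SD, n = 3), and the log2 fold change was -0.93 (SE 0.20, 95% interval -1.39 to -0.46, adjusted p = 0.00886 by limma). It did not pass the limits under median of ratios (-0.41), TMM (-0.40) or column totals (-0.45).

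**Figure D3:**
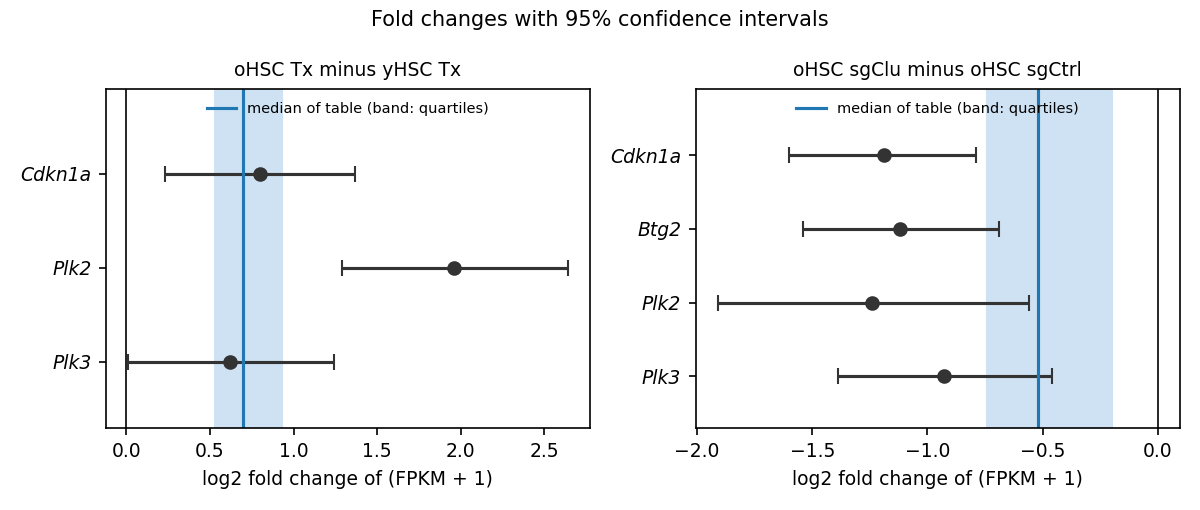
Log2 fold change of FPKM + 1 (horizontal axis) of each gene with its 95% confidence interval, for age on the left and Clu KO on the right; the blue line is the median of all genes of the table and the band spans its quartiles. With values as deposited, Cdkn1a and Plk3 lie at the median of the age table (0.70) and Plk2 above it at 1.96, and all 4 genes lie below the median of the KO table (-0.52).

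All 4 genes thus fell past the limits with Clu KO, where 50.1% of the table did. All 4 also passed at an adjusted p under 0.05, where 48.2% did, and all 4 had groups that did not overlap, where 52.5% of the table did. The exact permutation test gave its smallest possible two-sided value, p = 0.0571, for each. Past a log2 fold change of -1, which 11.8% of the table reached, were Cdkn1a, Btg2 and Plk2. Leaving out any 1 library kept all 4 past the limits. Cdkn1a, Plk2 and Plk3 are among the 53 genes held in both tables, and are among the 26 (49.1%) that were higher with age and lower with Clu KO past the limits. The 6 ratios among the genes overlapped between o_sgClu and o_sgCtrl, with differences of the mean log2 ratio between -0.24 and 0.25. The exact permutation p of these ratios ran from 0.571 to 0.971, which with 7 libraries does not show that the genes fell equally.

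**Figure D4:**
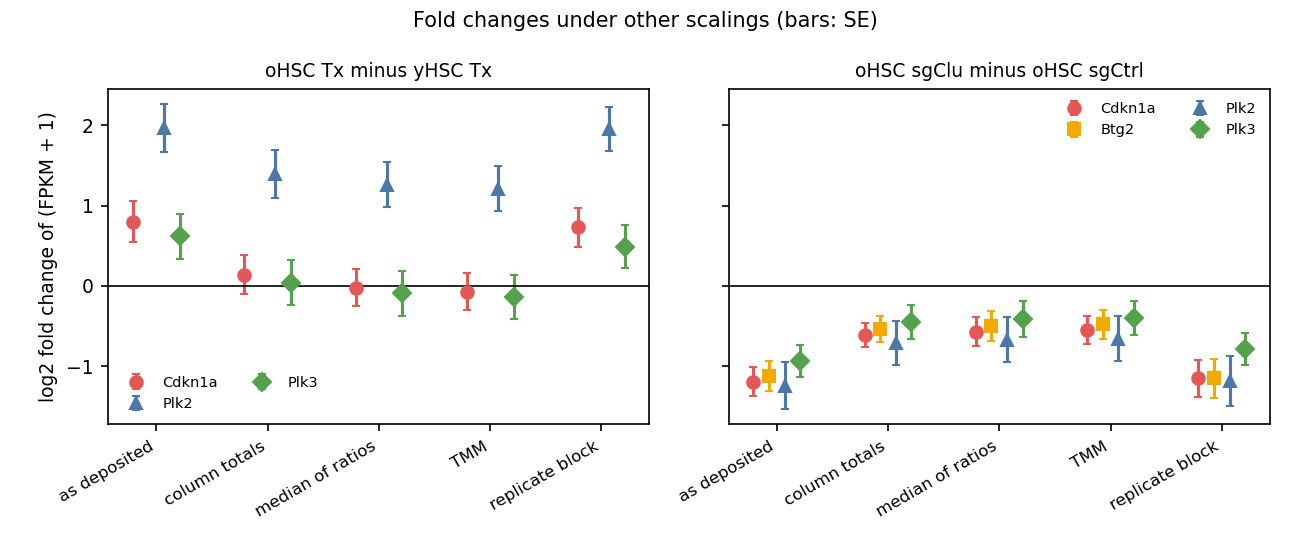
Log2 fold change of FPKM + 1 (vertical axis) of each gene with its SE as a bar, for values as deposited, for 3 rescalings over the genes of the table, and for a fit blocked on replicate number, with age on the left and Clu KO on the right. Cdkn1a and Plk3 lie near 0 in the age comparison after rescaling while Plk2 stays above 1, and in the KO comparison all 4 genes stay below 0 under every setting shown.

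Set in order by mean FPKM, Cdkn1a stood above Plk2 and Plk2 above Plk3 in oHSCs, and Cdkn1a above Btg2, Btg2 above Plk2 and Plk2 above Plk3 in both arms of the KO experiment. In yHSCs the order of the kinases was the other way round, with Plk3 at 5.38 and Plk2 at 3.83 FPKM. Each library kept the order of its group's means. Over libraries the ranges of Plk2 and Plk3 overlapped in o_Tx (11.0 to 27.6 and 5.80 to 11.9 FPKM) and nearly touched in o_sgClu (3.80 to 10.3 and 1.97 to 3.77 FPKM), so these neighbours are the least clearly apart. The 2 groups of oHSCs without Clu guides, o_Tx and o_sgCtrl, gave 143.2 and 124.0 FPKM for Cdkn1a, 18.5 and 14.4 FPKM for Plk2 and 9.18 and 6.50 FPKM for Plk3, but they come from tables that may have been normalized separately and were not tested against each other.

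The wider p53 pathway was thinly held. Of 37 other p53 targets, the age table held 3, and none passed the limits: Pmaip1, a BH3-only death gene, had a log2 fold change of 0.49, the exonuclease gene Aen 0.36 and the stress sensor Sesn2 0.34. Of these, 1 passed when o_Tx replicate 3 was left out, and 1 with a pseudocount of 0.1. Sesn2 stood at 0.446 ± 0.171 FPKM in o_Tx and 0.134 ± 0.0377 FPKM in y_Tx, with groups that did not overlap. At such low levels the pseudocount of 1 shrinks the fold change. The KO table held 4 of the 37, and of these Ier5 fell and Ptp4a3 rose, where 15.4% of the table was higher. Ier5, which is also an immediate early gene, was at 3.57 ± 0.173 FPKM in o_sgClu and 8.88 ± 1.91 FPKM in o_sgCtrl (log2 fold change -1.10, SE 0.15, adjusted p = 0.00259 by limma). Ptp4a3, a phosphatase, was at 30.6 ± 4.81 FPKM and 21.2 ± 2.81 FPKM (log2 fold change 0.50, SE 0.16, adjusted p = 0.0266 by limma), and missed the limits without o_sgClu replicate 2 or 4 or o_sgCtrl replicate 2 or 3. The repair gene Ddb2, at 0.50, and the p53 cofactor Trp53inp1, at -0.43, did not pass, and under the 3 rescalings Ddb2 passed as higher at 1.0 to 1.05. Under the same rescalings Ptp4a3 stayed higher at 1.07 to 1.13 and Ier5 lower at -0.55 to -0.60, past the limits each time. Trp53inp1 passed under none of them. As deposited, 1 of the 4 targets held thus fell and 1 rose past the limits. With 4 of 37 held in a preselected table, this does not describe p53 targets as a whole, and a part of p53 was not tested.

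Of 18 genes for p53 and its regulators, Trp53 itself was the one held, in the age table. The old group had 74.9 ± 13.5 FPKM (SD, n = 4) and the young one 47.5 ± 9.44 FPKM (SD, n = 3) without overlap, a log2 fold change of 0.65 (SE 0.24, adjusted p = 0.0519 by limma). It turned to -0.16 and -0.21 under median of ratios and TMM. The list of other CDK inhibitors, pocket proteins and BTG/TOB genes had 16 members. The age table held Cdkn2c, which encodes the CDK inhibitor p18 and was higher in oHSCs (22.4 ± 4.35 and 13.2 ± 3.45 FPKM, log2 fold change 0.73, adjusted p = 0.0418 by limma), and Btg3 (0.53, adjusted p = 0.0817), which passed under the replicate block (0.59, adjusted p = 0.0381). In the KO table Tob2, a relative of Btg2, was lower (5.90 ± 1.03 and 9.05 ± 1.34 FPKM, log2 fold change -0.55, adjusted p = 0.0232 by limma), while Tob1 (-0.61) and Btg1 (-0.48) did not pass. Neither Cdkn2c (-0.09 under TMM) nor Tob2 (0.02) passed under any of the 3 rescalings.

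No other Polo-like kinase (Plk1, Plk4 or Plk5) was held in either table. Of 22 cyclin, CDK and related genes and 25 proliferation genes, the age table held 1 each and the KO table none. The G1 cyclin Ccne1, which partners the kinase that p21 inhibits, was at 7.59 ± 0.825 FPKM in oHSCs and 3.57 ± 0.849 FPKM in yHSCs (log2 fold change 0.92, SE 0.22, adjusted p = 0.0153 by limma). Aurka, a mitotic kinase, was at 50.7 ± 15.8 and 27.8 ± 8.12 FPKM (0.84, SE 0.30, adjusted p = 0.0508 by limma). Old and young libraries did not overlap for either gene, and under TMM the log2 fold changes were 0.20 and -0.01, neither past the limits. As deposited, the brake genes held and Ccne1 and Aurka were higher in the same group. The age table has as many genes as the study called upregulated in oHSCs, so this shared direction was largely set by that selection.

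Other gene groups moved with the 4 genes. Of 39 immediate early and dissociation stress genes (without Btg2), the KO table held 27. All 27 were lower in o_sgClu past the limits, where 50.1% of the table was. Their median log2 fold change was -0.94, beside -1.15 for the 4 brake genes and -0.52 for the table. Their summed level was 1226 to 1694 FPKM in o_sgClu and 2235 to 3157 FPKM in o_sgCtrl. Under each of the 3 rescalings 9 of the 27 passed. Of all 583 genes, 59 were lower under median of ratios, 56 under TMM and 70 under column totals. The age table held 3 of the 39, with Ppp1r15a and Hspa1b higher, where 62.5% of the table was. The part of this response, or of handling, in the values of Cdkn1a, Btg2, Plk2 and Plk3 was not tested.

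The markers of differentiated cells that were held moved in the same directions. The age table has as many genes as the study called upregulated in oHSCs, so the direction of the markers in it was largely set beforehand. For age, 7 of 8 neutrophil and monocyte genes held were higher in o_Tx (summed 8058 to 11454 FPKM against 4123 to 5174 in y_Tx), as were 8 of 8 mast cell and basophil genes (497.2 to 796.0 against 233.2 to 369.5), 5 of 6 erythroid genes (1543 to 2434 against 818.1 to 1131) and 3 of 4 megakaryocyte genes (268.7 to 497.8 against 175.0 to 240.9), in a table where 62.5% of all genes were higher. For Clu KO, 3 of 4 neutrophil and monocyte genes held were lower in o_sgClu (118.1 to 230.0 FPKM against 323.0 to 512.7), where 50.1% of the table was lower. The 2 mast cell genes held, Tpsb2 and Mcpt4, summed to 0.0 FPKM in every o_sgClu library and to between 0.0 and 42.5 FPKM in o_sgCtrl, so the groups overlapped, and Tpsb2 was the one past the limits (adjusted p over 0.05 for both). No lymphoid gene of 15 was held in either table, and the KO table held no erythroid or megakaryocyte gene of the lists. As the tables were preselected, genes that are not held cannot be read as unchanged. In bulk libraries, fewer cells of a type and less RNA per cell cannot be told apart, and the part of these cells in the 4 genes was not tested.

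The genes whose log2 level was most like that of each brake gene over the 7 libraries of an experiment are given as a description, since libraries and the selected genes are shared between all of them. Among 546 age genes that reached a mean of 10 FPKM in a group, Cdkn1a was closest to Bin2 (Pearson r = 0.978, and 0.933 for deviations from the group means), Selenbp1 and the linker histone gene H1f0. Plk2 was closest to Pdzk1ip1, an HSC gene (r = 0.975 and 0.789), the stress transcription factor gene Ddit3 and H1f0. Plk3 was closest to the keratin gene Krt18 (r = 0.964 and 0.943), H2-Q5 and the platelet gene Pf4. H1f0 was thus named for both Cdkn1a and Plk2.

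Among 185 genes of the KO table at that level, Btg2 was closest to Ifrd1 (r = 0.991 and 0.974), the phosphatase gene Dusp1 (0.98 and 0.986) and Jun. Cdkn1a was closest to Tsc22d3, a glucocorticoid-induced gene (0.987 and 0.871), Gadd45b and Rrad. Plk2 was closest to Cd69 (0.967 and 0.895), Klf6 and Ctla2a, and Plk3 to Ly6a2 (0.966 and 0.91), Rnf125 and Ctla2b. Among the brake genes themselves, deviations from the group means went together in the age libraries (r from 0.798 to 0.891 over the 3 pairs of genes). The values were not rescaled for this, so differences that a whole library shares enter these correlations. Whether other pairs of genes go together as closely was not tested. In the KO libraries Cdkn1a and Btg2 deviated together (r = 0.791), and the other 5 pairs ranged from -0.175 (Btg2 and Plk3) to 0.433 (Cdkn1a and Plk2).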

How the data were processed

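RNA of sorted donor cells was made into unstranded libraries with SMART-Seq v4 and Nextera XT. Per the labels and the study's methods, the authors trimmed reads with TrimGalore, aligned them to GRCm38 (mm10) with Hisat2, counted with FeatureCounts and called genes with DESeq2. They deposited tables of called genes with normalized values whose header names no unit and which were taken as FPKM; TPM is possible, and the annotation and the step from counts to FPKM are not given in the sources used here. Depth is therefore unknown, and no count test was run. All 14 value columns were used.

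Each experiment was fitted alone over its whole table with limma 3.58.1 in R 4.3.3, two-sided, on log2(FPKM + 1), with the limits of 0.05 on unadjusted p and 0.5 on the absolute log2 fold change and Benjamini-Hochberg values over the table. A fold change on this scale understates that of low genes. Exact permutation tests listed all 35 groupings of 7 libraries (SciPy 1.17.1). On simulated data for the age table (1043 genes) 89 of 100 genes with a log2 fold change of 1 were called, and for the KO table (583 genes) 95 of 100. Of genes simulated without a change, 47 of 843 and 9 of 383 were called. The simulation had no preselection and no change shared by most genes, so these rates do not describe the real tables. Deviations of same-numbered libraries correlated at 0.405, 0.163 and 0.161 in the age experiment, and numbers there were read as pairs from the data, with nothing in the labels on what they share. The unlike-numbered o_Tx replicate 4 and y_Tx replicate 3 correlated at 0.191, and the other unlike-numbered pairs at -0.316 to 0.0369. The pairing is thus not clearly set apart. Named genes were the 4 genes, list genes past the limits, and the 3 genes closest to each of the 4; list genes that missed the limits were named after their values were seen. The genes and lists were chosen with earlier results of these data known. Alternatives were other variance models, scalings, filters, pseudocounts, limits, a replicate block and each library left out. Motif positions and gene models came from RefSeq (GRCm38.p6) and GENCODE M21.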

Additional observations from a re-analysis of the deposited data

Results flagged for a closer look

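Among the 7 gene and group pairs with 4 libraries, 2 held a library far from the others, by a gap to the nearest library of 0.855 of the group's range, past Dixon's 95% critical value for 4 samples. These were Btg2 in o_sgClu replicate 1, at 22.6 FPKM where the other 3 libraries lay between 31.4 and 32.9 FPKM, and Plk2 in o_sgClu replicate 3, at 10.3 FPKM where the others lay between 3.80 and 4.74 FPKM. Chance picks out about 1 in 20 groups. The 2 values are in different libraries, the first lies away from the control group and the second toward it. Both genes passed the limits without the library in question.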

How the results depend on the processing

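Of the 3 genes higher with age, 1 (Plk2) passed the limits under median-of-ratios, TMM and column-total scaling and with a log2 fold change limit of 1, and from 2 to 3 passed with any 1 library left out. Cdkn1a turned to -0.02 under median of ratios and -0.07 under TMM, and Plk3 to -0.09 and -0.14. These scalings rest on the called genes alone, so they remove the change that most of the table shares. Of the 4 genes lower with Clu KO, 2 passed under median of ratios, 1 under TMM and 3 under column totals. All 4 passed with any 1 library left out. Over all genes, calls for age were 652 higher and 10 lower as deposited, 125 and 54 under median of ratios, 114 and 62 under TMM and 151 and 40 under column totals, and 405 were higher without y_Tx replicate 3. For Clu KO they were 292 lower and 90 higher as deposited, 59 and 130, 56 and 130, and 70 and 129 under the same scalings, and 69 and 7 with a log2 fold change limit of 1. With the replicate block, 2 of 3 genes passed with age (Cdkn1a 0.73, Plk2 1.95, Plk3 0.49). Replicate 4 has no partner in either experiment. The block therefore gave the same log2 fold changes as leaving that library out, and is not a separate check of them. In the KO experiment the deviations of libraries with the same number had correlations of -0.103, 0.0731 and 0.0578, which gave no ground for pairing them, and the block kept all 4 genes past the limits (-1.15, -1.15, -1.18 and -0.79 for Cdkn1a, Btg2, Plk2 and Plk3), with 270 lower and 65 higher genes in all. Adjusted limma p ranged over the alternatives from 0.0271 to 0.969 for Cdkn1a and from 0.0572 to 0.984 for Plk3 with age, and with Clu KO from 0.00132 to 0.046 for Cdkn1a, 0.00178 to 0.0855 for Btg2, 0.00401 to 0.136 for Plk2 and 0.00526 to 0.217 for Plk3. Depth is unknown, so its part in the precision of each gene was not tested.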

Other observations

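The 2 tables held 53 genes in common, among them Cdkn1a, Plk2 and Plk3. Of the 53, 41 were higher with age and 31 lower with Clu KO past the limits, and 26 (49.1%) did both, including these 3 genes. For 16 of the 53, groups did not overlap in either experiment in these directions, Cdkn1a and Plk2 among them and Plk3 not. The 2 experiments share no libraries, but each table was preselected in its own contrast. Under rescaling, 2 of the 53 did both under median of ratios (Plk2 among them), 2 under column totals (Plk2 among them) and 0 under TMM, and with the replicate block it was 24, with Cdkn1a and Plk2 but not Plk3.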
